A study of Mus musculus with 48 samples.

Results

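The endothelial genes described here are 32 transcripts of the cells that line blood and lymph vessels, followed through 4 mouse hindlimb muscles before birth and in adulthood. The list was given by symbol and matched to the gene identifiers of the count table, where all 32 were found among 27179 genes. It holds 15 surface, junction and signalling genes of endothelium at large (Pecam1, Cdh5, Tie1, Cldn5, Esam, Egfl7, Robo4, Ptprb, Eng, Icam2, Mmrn2, Clec14a, Ramp2, S1pr1 and Nos3) and 5 transcription factors (Erg, Fli1, Sox7, Sox18 and Tal1). These 20 are called pan-endothelial below. The other 12 mark a kind or state of vessel. Gpihbp1, Rgcc, Aqp1, Aqp7 and Emcn stand for capillaries, Esm1, Apln, Aplnr and Plvap for growing or leaky vessels, Vwf and Sox17 for large vessels, and Lyve1 for lymphatics. Cldn5, the main tight junction claudin of endothelium, had 4 counts over all 48 libraries, 1 count in each of 4 libraries and 0 in the other 44, and was not tested. Whether the counting annotation holds this gene in full was not tested, so the count is not read as its level. The other 31 passed the filter on low counts and are the members tested throughout.

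Skeletal muscle is fed by a dense capillary bed that runs along its fibres, and slow oxidative muscle is known to have more capillaries per fibre than fast glycolytic muscle. Endothelial cells hold together through VE-cadherin and PECAM1, respond to flow through nitric oxide synthase and sphingosine phosphate receptors, and keep their identity through ETS factors such as ERG and FLI1 and SOXF factors such as SOX7, SOX17 and SOX18. Sprouting tip cells make ESM1 and apelin, whereas mature muscle capillaries carry GPIHBP1, which holds lipoprotein lipase, and water and glycerol channels.

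The animals were male mice of the inbred strain FVB/NJ, with no treatment or altered allele. Adult soleus (6 libraries), vastus intermedius (5 libraries used), gastrocnemius (6) and vastus lateralis (6) were set against the same muscles late in gestation (E18.5, 6 libraries each), with all 4 muscles of an animal taken. Soleus and vastus intermedius are slow-biased and gastrocnemius and vastus lateralis fast-biased, with the 2 vastus muscles in the thigh and the others in the shank. The series design text gives postnatal day 56 for the adults and the growth protocol gives 3 to 4 months. Whole muscle was sequenced, so fibres, vessels, nerve, connective tissue and blood are all in each library, and fewer endothelial cells and less RNA per endothelial cell cannot be told apart.

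Libraries held 14.9 to 32.4 M counts (median 22.8 M), and 3 counts, the limit that a count of 0 allows, came to 0.093 to 0.201 CPM (counts relative to the library total). The 20 most abundant genes took 24.8% to 45.5% of an adult library and 11.3% to 18.52% of an E18.5 library. Levels are CPM scaled by the trimmed mean of M-values (TMM). An adult vastus intermedius library was left out of all groups because it had an embryonic profile, with Apln at 39.9 CPM and Aqp1 at 145 CPM. A gene is called where the adjusted p of the edgeR quasi-likelihood test, over all genes tested, is under 0.05. Folds are log2, given ± standard error.

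The promoter stretches of 5 members that the comparisons turn on are shown: Tie1 (a receptor tyrosine kinase of all endothelium), Clec14a (a surface lectin that was lower in adults in every muscle), Aqp1 (higher in adults in every muscle), and Apln and Esm1 (the sprouting genes that were lower in adults in every muscle). Each line gives the 250 bases upstream of the annotated start from RefSeq, build GRCm38.p6, 5′ to 3′ on the gene's strand, with the ETS core GGAA or its reverse complement TTCC in capitals. The stretches lie at chr4:118489850-118490099 (minus strand), chr12:58269259-58269508 (minus strand), chr6:55336049-55336298 (plus strand), chrX:48034854-48035103 (minus strand) and chr13:113209409-113209658 (plus strand).
Tie1: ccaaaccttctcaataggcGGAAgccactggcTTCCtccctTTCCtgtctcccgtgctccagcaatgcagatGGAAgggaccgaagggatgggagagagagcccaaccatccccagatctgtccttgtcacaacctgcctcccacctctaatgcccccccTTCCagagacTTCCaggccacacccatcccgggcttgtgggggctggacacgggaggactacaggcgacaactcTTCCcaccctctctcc
Clec14a: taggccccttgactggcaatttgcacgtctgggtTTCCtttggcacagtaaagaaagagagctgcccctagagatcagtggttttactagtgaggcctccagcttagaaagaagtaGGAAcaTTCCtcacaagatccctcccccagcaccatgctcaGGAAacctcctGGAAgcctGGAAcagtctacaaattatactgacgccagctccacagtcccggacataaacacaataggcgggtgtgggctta
Aqp1: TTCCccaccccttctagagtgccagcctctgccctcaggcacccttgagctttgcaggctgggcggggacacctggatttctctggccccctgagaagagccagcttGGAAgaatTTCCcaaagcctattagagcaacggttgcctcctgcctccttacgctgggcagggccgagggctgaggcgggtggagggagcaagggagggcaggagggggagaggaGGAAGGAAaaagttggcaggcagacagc
Apln: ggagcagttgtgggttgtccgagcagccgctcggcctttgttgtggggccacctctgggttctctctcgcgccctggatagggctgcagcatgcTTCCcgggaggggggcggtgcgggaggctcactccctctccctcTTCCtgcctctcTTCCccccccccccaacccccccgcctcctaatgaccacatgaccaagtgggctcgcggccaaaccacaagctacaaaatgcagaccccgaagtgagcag
Esm1: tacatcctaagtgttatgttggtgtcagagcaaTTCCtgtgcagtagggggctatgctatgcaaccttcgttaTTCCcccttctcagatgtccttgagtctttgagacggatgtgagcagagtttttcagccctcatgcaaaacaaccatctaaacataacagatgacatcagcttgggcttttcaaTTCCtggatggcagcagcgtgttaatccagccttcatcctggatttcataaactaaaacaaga
The Tie1 stretch held 7 ETS cores, Clec14a 6, Aqp1 5, and Apln and Esm1 3 each. An ETS core was present in 93.45% of 32851 upstream stretches of this length, with a median of 3, so its presence does not set the members apart. Of the 14 members found in the promoter table, 10 had a single stretch, and 13 had an ETS core in at least 1 stretch. The SOX core ACAAT or ATTGT was found in at least 1 stretch of 4 of the 14, and in 27.66% of all stretches. The first counts genes and the second counts stretches, so they are not like measures. Among the 5 printed here it was found in Clec14a alone (1 match). These matches describe letters in the window only.

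Per kilobase of exon, Aqp1 was the most abundant member in adults (119 CPM per kb, mean of the 4 muscles), ahead of Pecam1 (42.1), Cdh5 (37.2) and Gpihbp1 (32.6). At E18.5 Pecam1 led with 47.6 CPM per kb, followed by Cdh5 (41.4) and Aqp1 (34.9). Ptprb, the vascular endothelial protein tyrosine phosphatase, stood at 19.9 CPM per kb in adults and 5.30 CPM per kb at E18.5. Apln ranked 29th of the 32 in adults and 12th at E18.5, Vwf 16th and 27th, and Lyve1 24th and 9th. The order within the set was therefore not the same before birth and in adulthood, whereas Pecam1 and Cdh5 stayed near its top.

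In adults most endothelial genes were higher in slow-biased than in fast-biased muscle. Of the 31 members, 27 were called higher in slow-biased muscle and none lower, with a median log2 fold of 0.68, against a median of 0.08 over all 14304 genes. In this comparison 66.0% of all genes were called, 35.9% higher and 30.1% lower. All 19 tested pan-endothelial members were called higher (median 0.72), with 3 of 5 capillary members (median 0.42), 2 of 4 growing vessel members (median 0.34), both large vessel members, and Lyve1. Rgcc, Aqp1, Esm1 and Apln were not called.

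Pecam1, the adhesion molecule by which endothelium is most often recognised, shows the pattern. In adults its lowest, median and highest levels were 147, 171 and 186 CPM in soleus, 136, 174 and 226 CPM in vastus intermedius, 87.5, 113 and 134 CPM in gastrocnemius and 75.7, 97.8 and 126 CPM in vastus lateralis. Every slow-biased library lay above every fast-biased library, and the fold was 0.76 ± 0.09, adjusted p = 1.08e-07. The 5 vastus intermedius libraries read 136, 166, 174, 194 and 226 CPM. Groups that do not overlap were also seen for Eng, Icam2, Ramp2 and Emcn, 5 members in all, whereas 5.42% of all genes were higher and 9.02% lower without overlap. Cdh5, which encodes VE-cadherin, the adherens junction protein, reached 142, 162 and 179 CPM in soleus, 161, 188 and 207 CPM in vastus intermedius, 104, 138 and 156 CPM in gastrocnemius and 76.2, 117 and 131 CPM in vastus lateralis (0.53 ± 0.08, adjusted p = 6.30e-06). Its slow-biased and fast-biased libraries overlapped at the edge, since the highest gastrocnemius library exceeded the lowest soleus library.

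The remaining pan-endothelial surface genes differed in the same direction by differing amounts. Nos3, the endothelial nitric oxide synthase, had 21.8, 30.2 and 50.5 CPM in soleus, 30.3, 34.95 and 59.4 CPM in vastus intermedius, 14.7, 21.4 and 24.2 CPM in gastrocnemius and 8.87, 16.8 and 29.6 CPM in vastus lateralis, and its fold of 0.93 ± 0.17, adjusted p = 3.25e-05 was the largest among the surface genes. Ptprb had 273, 279 and 356 CPM in soleus, 206, 299.7 and 356 CPM in vastus intermedius, 163, 212 and 259.9 CPM in gastrocnemius and 98.2, 165 and 213 CPM in vastus lateralis (0.70 ± 0.11, adjusted p = 4.45e-06). In both genes the 2 fast-biased muscles had the lower medians, while their highest libraries overlapped the slow-biased range. Ramp2, the partner that makes the calcitonin-like receptor into an adrenomedullin receptor, read 26.9, 28.1 and 31.2 CPM in soleus, 24.6, 29.2 and 31.4 CPM in vastus intermedius, 15.04, 17.1 and 22.8 CPM in gastrocnemius and 12.2, 16.01 and 21.4 CPM in vastus lateralis, with no overlap and a fold of 0.72 ± 0.09, adjusted p = 1.78e-07.

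S1pr1, the receptor for sphingosine-1-phosphate, had adult levels of 43.3, 56.5 and 64.2 CPM in soleus, 42.6, 55.5 and 67.1 CPM in vastus intermedius, 25.4, 39.5 and 54.8 CPM in gastrocnemius and 17.2, 38.1 and 41.1 CPM in vastus lateralis (0.62 ± 0.14, adjusted p = 0.000391). Esam, a tight junction adhesion molecule, showed 36.95, 42.1 and 50.3 CPM in soleus, 47.5, 49.3 and 57.6 CPM in vastus intermedius, 25.7, 37.9 and 50.5 CPM in gastrocnemius and 22.2, 29.6 and 36.8 CPM in vastus lateralis (0.52 ± 0.10, adjusted p = 6.54e-05). For both genes the lowest libraries were those of vastus lateralis. Robo4, a guidance receptor that stabilises vessels, had the smallest fold of the pan-endothelial members, 0.34 ± 0.13, adjusted p = 0.0219. Its levels were 20.5, 24.2 and 29.4 CPM in soleus, 27.04, 34.5 and 42.8 CPM in vastus intermedius, 17.5, 26.6 and 29.1 CPM in gastrocnemius and 10.1, 22.8 and 29.3 CPM in vastus lateralis, and the call was lost without adult collection A (log2 fold 0.30, adjusted p = 0.0743). The folds of Tie1, Egfl7, Eng, Icam2, Mmrn2 and Clec14a lay between 0.66 (Mmrn2, a matrix protein of vessel walls) and 0.82 (Clec14a).

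Among the transcription factors Sox7 had the largest fold, 1.04 ± 0.28, adjusted p = 0.00198, and also the widest spread, with 12.9, 22.5 and 41.6 CPM in soleus, 17.1, 38.1 and 61.5 CPM in vastus intermedius, 7.73, 17.7 and 22.8 CPM in gastrocnemius and 3.37, 13.6 and 23.5 CPM in vastus lateralis. The lowest library was from vastus lateralis and the highest from vastus intermedius, and the groups overlapped. Tal1, which blood-forming and endothelial cells share, had 4.52, 5.06 and 6.82 CPM in soleus, 3.68, 5.42 and 7.26 CPM in vastus intermedius, 2.25, 3.72 and 4.98 CPM in gastrocnemius and 1.57, 2.57 and 3.87 CPM in vastus lateralis (0.85 ± 0.17, adjusted p = 0.000106). Of the erythroid genes, Hba-a1 (1.43 ± 0.23) and Alas2 (1.197 ± 0.26) were higher along the same contrast, while Gata1, the erythroid factor, had medians of 0 CPM in all 4 adult groups and at most 0.219 CPM in a library. The part of blood cells in the Tal1 result was not tested. Erg (0.66 ± 0.15), Fli1 (0.59 ± 0.11) and Sox18 (0.80 ± 0.24) were higher too. Fli1 is also made by leukocytes, whose marker Ptprc (CD45) had a fold of 1.09 ± 0.26 and medians of 6.71, 4.83, 2.17 and 2.49 CPM in soleus, vastus intermedius, gastrocnemius and vastus lateralis. The part of leukocytes in the Fli1 result was not tested.

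The capillary members did not move as a block. Emcn, a mucin-like glycoprotein of capillaries and venules, followed the pan-endothelial genes with 22.9, 23.97 and 31.9 CPM in soleus, 22.8, 24.2 and 26.9 CPM in vastus intermedius, 12.02, 16.3 and 19.2 CPM in gastrocnemius and 12.3, 14.6 and 17.5 CPM in vastus lateralis and a fold of 0.74 ± 0.09, adjusted p = 7.97e-08, without overlap. Aqp7, a channel for water and glycerol, had 9.92, 14.5 and 21.04 CPM in soleus, 16.8, 19.4 and 27.2 CPM in vastus intermedius, 8.68, 12.7 and 14.6 CPM in gastrocnemius and 5.75, 11.2 and 13.6 CPM in vastus lateralis (0.68 ± 0.14, adjusted p = 0.000187). Adipocytes also make Aqp7. Their marker Adipoq had 9.099, 18.6 and 23.3 CPM in soleus, 0.0623, 1.61 and 36.7 CPM in vastus intermedius, 0.163, 8.94 and 17.7 CPM in gastrocnemius and 2.94, 20.02 and 64.4 CPM in vastus lateralis. None of the 5 adipocyte genes was called between slow-biased and fast-biased muscle, with median folds of -0.23 over both pairs, 1.09 in soleus against gastrocnemius and -1.71 in vastus intermedius against vastus lateralis. The part of adipocytes in the adult Aqp7 difference was not tested.

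Gpihbp1, the protein that carries lipoprotein lipase to the capillary lumen, was higher in slow-biased muscle by 0.42 ± 0.11, adjusted p = 0.00228. Its levels were 20.7, 24.1 and 35.5 CPM in soleus, 29.4, 33.1 and 35.8 CPM in vastus intermedius, 15.3, 25.2 and 35.6 CPM in gastrocnemius and 14.7, 20.7 and 25.6 CPM in vastus lateralis, so that soleus and gastrocnemius had nearly the same median and vastus intermedius stood above vastus lateralis. Aqp1, the water channel of continuous capillaries, had 252, 276 and 341 CPM in soleus, 281, 396 and 440.2 CPM in vastus intermedius, 277, 335 and 499 CPM in gastrocnemius and 235, 302 and 355 CPM in vastus lateralis, with a fold of 0.02 ± 0.10, adjusted p = 0.89. Its highest library was a gastrocnemius library. Under total counts without TMM the Aqp1 fold was 0.34 (adjusted p = 0.0088) and all genes had a median of 0.41, so on either scale Aqp1 did not exceed the median gene. Rgcc, a cell cycle regulator abundant in capillary endothelium, had 8.81, 12.6 and 18.48 CPM in soleus, 7.84, 12.7 and 19.1 CPM in vastus intermedius, 11.3, 13.9 and 24.1 CPM in gastrocnemius and 6.53, 10.9 and 23.5 CPM in vastus lateralis, and its fold of -0.06 ± 0.20, adjusted p = 0.791 was not called.

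Of the growing vessel members, Aplnr and Plvap were higher in slow-biased muscle and the 2 tip cell genes were not called. Aplnr, the apelin receptor, read 16.7, 20.8 and 32.5 CPM in soleus, 17.3, 27.5 and 40.1 CPM in vastus intermedius, 12.7, 17.8 and 26.1 CPM in gastrocnemius and 7.75, 13.2 and 22.02 CPM in vastus lateralis (0.68 ± 0.16, adjusted p = 0.000857). Plvap, which forms the diaphragms of fenestrae and caveolae, read 45.8, 49.7 and 54.97 CPM in soleus, 29.4, 33.3 and 58.7 CPM in vastus intermedius, 24.7, 32.002 and 36.8 CPM in gastrocnemius and 22.7, 28.1 and 32.1 CPM in vastus lateralis (0.63 ± 0.11, adjusted p = 2.18e-05), and soleus stood above gastrocnemius without overlap. In that pair 14.8% of all genes were higher without overlap. Apln, the apelin peptide, had 1.73, 3.61 and 8.26 CPM in soleus, 2.12, 4.605 and 5.16 CPM in vastus intermedius, 2.22, 4.104 and 8.505 CPM in gastrocnemius and 1.9999, 4.35 and 6.28 CPM in vastus lateralis, with a fold of -0.14 ± 0.26, adjusted p = 0.646. Esm1, a secreted proteoglycan of sprouting tips, was low in adults, with 0.216, 0.546 and 0.626 CPM in soleus, 0.0725, 0.748 and 1.32 CPM in vastus intermedius, 0.492, 0.863 and 1.25 CPM in gastrocnemius and 0, 0.401 and 0.7699 CPM in vastus lateralis (0.05 ± 0.38, adjusted p = 0.913). Its folds had opposite signs in the 2 pairs and were called in neither, at -0.76 ± 0.52, adjusted p = 0.216 in soleus against gastrocnemius (soleus higher in 1 of 6 animals) and 0.86 ± 0.57, adjusted p = 0.207 in vastus intermedius against vastus lateralis (higher in 4 of 5 animals).

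Both large vessel members were higher in slow-biased muscle. Vwf, the clotting factor that large vessels and veins store, had 90.2, 116 and 147 CPM in soleus, 60.1, 102 and 115 CPM in vastus intermedius, 55.5, 75.1 and 90.6 CPM in gastrocnemius and 51.6, 61.4 and 91.9 CPM in vastus lateralis (0.62 ± 0.12, adjusted p = 6.68e-05). Sox17, a factor of arterial endothelium, had 13.1, 14.8 and 19.8 CPM in soleus, 9.53, 17.5 and 22.6 CPM in vastus intermedius, 6.08, 9.63 and 11.9 CPM in gastrocnemius and 4.82, 7.65 and 11.3 CPM in vastus lateralis (0.96 ± 0.15, adjusted p = 4.93e-06). Lyve1, a hyaluronan receptor of lymphatic endothelium and of some macrophages, showed the largest fold of all 31 members, 1.54 ± 0.21, adjusted p = 6.55e-07, with 18.3, 22.8 and 35.8 CPM in soleus, 9.93, 15.02 and 20.96 CPM in vastus intermedius, 4.92, 7.53 and 13.3 CPM in gastrocnemius and 2.37, 4.66 and 10.8 CPM in vastus lateralis. Soleus was highest and stood above gastrocnemius without overlap, as it did for 14.8% of all genes. The lymphatic list fixed beside the members (Flt4, Pdpn, Reln, Mmrn1 and Prox1) had 5 of 5 genes called higher, with a median of 1.70. Prox1, the lymphatic master factor that slow fibres also make, had 3.57 ± 0.24. The summed leukocyte list ran at 184, 222 and 276 CPM in soleus, 140.4, 155 and 209 CPM in vastus intermedius, 77.9, 102 and 172 CPM in gastrocnemius and 57.8, 113 and 155 CPM in vastus lateralis, and the part of macrophages in the Lyve1 result was not tested.

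**Figure D1:**
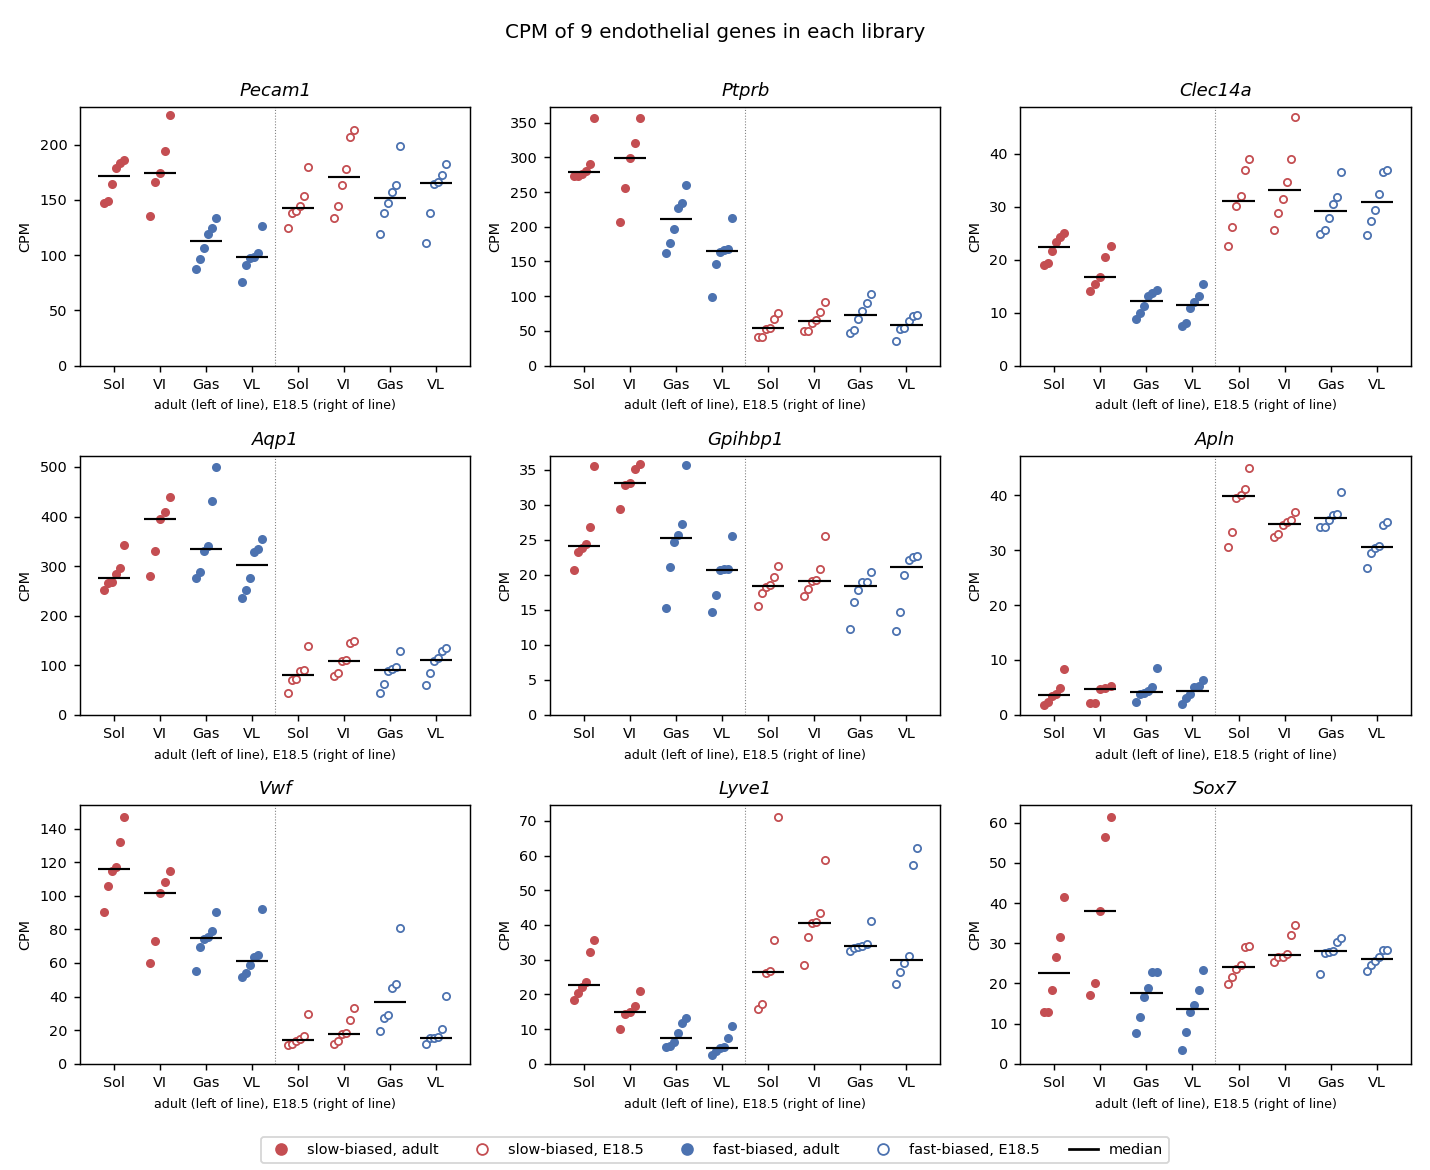
Level in CPM (vertical axis, linear from 0) of 9 members in each of the 47 libraries, by muscle (Sol, soleus; VI, vastus intermedius; Gas, gastrocnemius; VL, vastus lateralis), with adult libraries left and E18.5 libraries right of the dotted line, and a bar at each group's median. Adult slow-biased libraries lie above adult fast-biased ones for Pecam1 and overlap them for Aqp1 and Apln, and Ptprb, Aqp1 and Vwf are mostly higher and Apln and Clec14a lower in adults than at E18.5.

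Taken by pair, both regions of the adult limb showed the difference. In vastus intermedius against vastus lateralis, 28 of 31 members were called higher and none lower, with a median of 0.86, where 52.2% of all genes were called, 27.9% higher and 24.3% lower. In soleus against gastrocnemius, 20 of 31 were called higher and none lower, with a median of 0.50, where 53.5% of all genes were called, 27.7% higher and 25.9% lower. The difference between the 2 pairs was not itself tested. Vastus lateralis was the lowest adult group for 29 of the 31 members, and vastus intermedius the highest adult group for 20. The same order was not counted over all genes, so it is not read as a trait of the members.

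Within animals the pan-endothelial total was higher in soleus than in gastrocnemius in 6 of 6 adults and higher in vastus intermedius than in vastus lateralis in 5 of 5. Summed over its 20 genes, it had lowest, median and highest values of 1063, 1176 and 1297 CPM in soleus, 1086, 1256 and 1579 CPM in vastus intermedius, 659, 863 and 1008 CPM in gastrocnemius and 479, 731 and 879.7 CPM in vastus lateralis. The summed capillary members ran at 333, 351 and 440.5 CPM in soleus, 387, 483 and 534 CPM in vastus intermedius, 342, 402 and 586 CPM in gastrocnemius and 279, 358 and 417 CPM in vastus lateralis, with gastrocnemius above soleus at the median. Most of that sum is Aqp1, which averaged 284 of 364 CPM in soleus and 361 of 430.2 CPM in gastrocnemius. Emcn and Aqp7 had the higher median in soleus, and so had the summed list of other capillary genes (medians of 586 CPM in soleus and 362 CPM in gastrocnemius). The part of adipocytes in that sum was not tested. In this pair the 5 adipocyte genes had a median fold of 1.09, with 0 called.

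In the shank pair 15 of 19 pan-endothelial members were called higher, and Esam (0.21), Robo4 (0.02), Sox7 (0.54) and Sox18 (0.46) were not. With the animal as a block, Sox7 (0.49, adjusted p = 0.0269) and Sox18 (0.48, adjusted p = 0.0118) were called too. Of the capillary members only Emcn was called (0.70 ± 0.12). Aqp1 had -0.32 ± 0.14, adjusted p = 0.0575, and the blocked fit called it lower in soleus (-0.29, adjusted p = 0.0107), as it was in 6 of 6 animals. It was also called without adult collection C or D. The calls of Cdh5, Egfl7, S1pr1, Nos3, Tal1 and Fli1 in this pair were lost when 1 or another adult collection was left out. Without adult collection A, for instance, Cdh5 had 0.25 (adjusted p = 0.125) and 14 members were called. With the omitted vastus intermedius library put back, the calls of Cdh5, Egfl7, S1pr1, Nos3, Tal1 and Ptprb (0.49, adjusted p = 0.0853) were lost.

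In the thigh pair all 19 pan-endothelial members and 4 of 5 capillary members were called higher. Sox7 (1.54 ± 0.40), Lyve1 (1.47 ± 0.30), Nos3 (1.21 ± 0.24) and Sox17 (1.18 ± 0.22) had the largest folds. Gpihbp1 was higher by 0.76 ± 0.16, without overlap between the muscles, against 0.07 ± 0.15 in the shank pair. Of all genes 15.1% were higher in vastus intermedius than in vastus lateralis without overlap. The Aqp1 levels in the vastus intermedius libraries were 281, 329.5, 396, 409 and 440.2 CPM, and its fold was 0.35 ± 0.15, adjusted p = 0.046, higher in 5 of 5 animals. That call was lost without adult collection A, D, E or F, without the filter on low counts (adjusted p = 0.0533), and with the omitted vastus intermedius library put back (0.18, adjusted p = 0.459). The calls of Vwf, Erg and Plvap were lost without adult collection C, that of Vwf also without A and with the omitted library put back (0.34, adjusted p = 0.251), and that of Erg also without F.

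Between adult thigh and shank few members were called. Lyve1 alone of the 31 members was called, lower in the thigh (-0.63 ± 0.21, adjusted p = 0.0343), where 19.1% of all genes were called and 7.55% were lower. DESeq2 called 1 member and 3 had an unadjusted p under 0.05. The Lyve1 call was lost without adult collection A, D, E or F and with the omitted library put back (-0.44, adjusted p = 0.293). Without adult collection A, Plvap was called lower in the thigh (-0.38, adjusted p = 0.012). No pan-endothelial member was called, and their median fold was -0.03.

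At E18.5 no member was called between slow-biased and fast-biased muscle by edgeR. Only 0.368% of all genes were called in this comparison, 4 members had an unadjusted p under 0.05, and DESeq2 called 1, Plvap (0.47, adjusted p = 0.0154). The pan-endothelial median was 0.02. Pecam1 had 124, 142 and 179.9 CPM in soleus, 133, 171 and 213 CPM in vastus intermedius, 119, 152 and 199 CPM in gastrocnemius and 111, 165 and 183 CPM in vastus lateralis at E18.5, and its fold was 0.05 ± 0.10. Cdh5 had 132, 145 and 191 CPM in soleus, 160.5, 173 and 215 CPM in vastus intermedius, 139.7, 163 and 184 CPM in gastrocnemius and 138, 169 and 188 CPM in vastus lateralis and a fold of 0.02 ± 0.07. The 4 muscles overlapped widely for both genes. Vwf had 10.98, 14.1 and 29.6 CPM in soleus, 11.9, 17.8 and 33.3 CPM in vastus intermedius, 19.6, 36.99 and 80.6 CPM in gastrocnemius and 12.004, 15.6 and 40.1 CPM in vastus lateralis, with gastrocnemius the highest group, and a fold of -0.67 ± 0.24, adjusted p = 0.236. The pan-endothelial total was higher in soleus than in gastrocnemius in 2 of 6 embryos and higher in vastus intermedius than in vastus lateralis in 4 of 6.

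Few members were called between thigh and shank at E18.5, a smaller share than of all genes, and no pan-endothelial gene was called. Of the 31 members 4 were called, where 24.8% of all genes were called, 14.1% higher and 10.7% lower. Rgcc (0.37 ± 0.11, adjusted p = 0.0182) and Plvap (0.37 ± 0.12, adjusted p = 0.0261) were higher in the thigh, and Esm1 (-0.54 ± 0.16, adjusted p = 0.0169) and Apln (-0.19 ± 0.06, adjusted p = 0.0157) were lower. Rgcc had 4.71, 6.31 and 6.55 CPM in soleus, 6.09, 7.57 and 8.51 CPM in vastus intermedius, 3.75, 5.71 and 6.28 CPM in gastrocnemius and 4.701, 7.93 and 8.39 CPM in vastus lateralis, and Plvap had 13.3, 19.995 and 28.8 CPM in soleus, 24.2, 25.6 and 36.6 CPM in vastus intermedius, 10.6, 15.6 and 18.7 CPM in gastrocnemius and 15.9, 18.1 and 23.5 CPM in vastus lateralis. Apln had 30.6, 39.8 and 45.02 CPM in soleus, 32.5, 34.8 and 36.9 CPM in vastus intermedius, 34.3, 35.95 and 40.6 CPM in gastrocnemius and 26.8, 30.6 and 35.2 CPM in vastus lateralis, and Esm1 had 3.49, 4.104 and 6.89 CPM in soleus, 2.02, 2.46 and 4.25 CPM in vastus intermedius, 1.801, 3.25 and 3.78 CPM in gastrocnemius and 1.301, 2.27 and 2.83 CPM in vastus lateralis. The thigh and shank libraries overlapped for all 4 genes. Each of these calls was lost when a collection was left out, Esm1 without D, Apln without B, Rgcc without B, C, D or E, and Plvap without D, E or F, and Apln alone was still called without D. Under total counts 0 members were higher and 3 lower. With the animal as a block 7 members were called, adding Ramp2 (-0.24), S1pr1 (0.17) and Aqp1 (0.39).

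**Figure D2:**
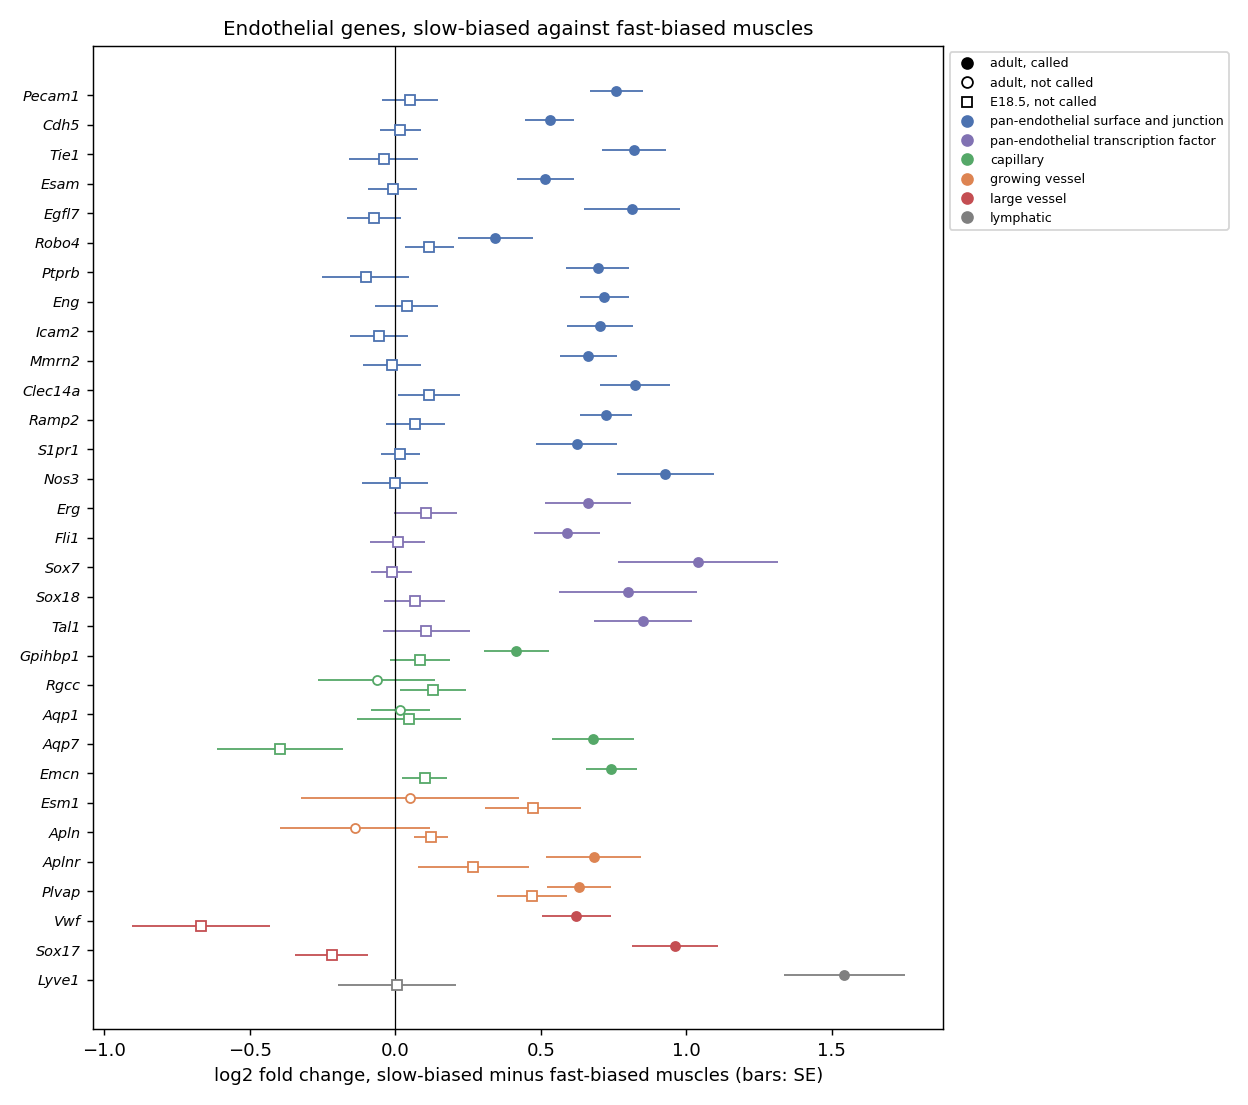
Log2 fold of slow-biased minus fast-biased muscle (horizontal axis, bars SE) for the 31 tested members, circles for adults (filled where called) and open squares for E18.5, coloured by class. The adult pan-endothelial genes lie between 0.34 and 1.04, Rgcc, Aqp1, Esm1 and Apln lie near 0, and no E18.5 value was called.

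The slow-to-fast difference itself was larger in adults than at E18.5 for most members. The contrast of the 2 differences was called higher for 23 of 31 members and lower for none, with a median of 0.64, where 50.8% of all genes were called, 26.6% higher. It was called for 18 of 19 pan-endothelial members, with Robo4 (0.19 ± 0.16) the exception. Lyve1 (1.495 ± 0.30), Vwf (1.25 ± 0.28), Sox17 (1.15 ± 0.20), Aqp7 (1.04 ± 0.26) and Sox7 (1.02 ± 0.29) had the largest values. Emcn was called among the capillary members too (0.61 ± 0.12), while Gpihbp1, Rgcc and Aqp1 and the 4 growing vessel members were not.

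Set against E18.5, the adult muscles had members called in both directions. Counts of members called depended on the scaling here and are given for TMM and for total counts. With TMM, 19 members were higher and 6 lower in adult soleus, 17 and 5 in vastus intermedius, 10 and 12 in gastrocnemius, and 8 and 15 in vastus lateralis. Of all genes, 76.0% were called in soleus (36.3% higher, 39.7% lower), 76.1% in vastus intermedius (36.9% and 39.2%), 82.2% in gastrocnemius (38.2% and 44.0%) and 79.0% in vastus lateralis (36.4% and 42.6%). Under total counts without TMM the members split into 9 higher and 13 lower in soleus, 6 and 13 in vastus intermedius, 3 and 25 in gastrocnemius, and 2 and 25 in vastus lateralis. That scaling moved the median of all genes to -0.75, -0.80, -1.21 and -1.19 in those muscles, against -0.06, -0.04, -0.12 and -0.15 with TMM. Upper-quartile scaling gave 8 higher and 15 lower in gastrocnemius. Other cells moved with stage as well. The summed muscle fibre list averaged 66877 CPM for soleus, 83693 CPM for vastus intermedius, 211725 CPM for gastrocnemius and 263698 CPM for vastus lateralis in adults, against 21331 CPM for soleus, 33074 CPM for vastus intermedius, 18639 CPM for gastrocnemius and 29549 CPM for vastus lateralis at E18.5. The summed fibroblast list averaged 1403 CPM for soleus, 971 CPM for vastus intermedius, 1038 CPM for gastrocnemius and 898 CPM for vastus lateralis in adults, against 7442 CPM for soleus, 5980.2 CPM for vastus intermedius, 6171 CPM for gastrocnemius and 6256 CPM for vastus lateralis at E18.5. Their part in the stage results was not tested, and stage and collection date cannot be told apart.

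Over the 4 scalings tried, 5 members kept 1 call in all 4 muscles. Aqp1 was higher in adults, and Apln, Aplnr, Esm1 and Clec14a were lower. Aqp1 had 44.3, 79.9 and 138 CPM in soleus, 77.3, 109 and 148 CPM in vastus intermedius, 43.8, 89.8 and 127 CPM in gastrocnemius and 60.8, 111 and 134 CPM in vastus lateralis at E18.5, all below the adult levels given above, and folds of 1.75 ± 0.21 for soleus, 1.75 ± 0.18 for vastus intermedius, 2.08 ± 0.22 for gastrocnemius and 1.49 ± 0.18 for vastus lateralis. Apln had adult folds of -3.25 ± 0.28 for soleus, -3.14 ± 0.22 for vastus intermedius, -2.99 ± 0.21 for gastrocnemius and -2.87 ± 0.20 for vastus lateralis. No adult library used exceeded 8.505 CPM of Apln, and no E18.5 library was under 26.8 CPM. The omitted library, whose Apln level was part of its embryonic profile, read 39.9 CPM. Between stages 27.7% to 31.4% of all genes were higher and 30.1% to 36.2% lower without overlap, depending on the muscle. Esm1 had folds of -3.18 ± 0.27 for soleus, -2.05 ± 0.47 for vastus intermedius, -1.78 ± 0.28 for gastrocnemius and -2.59 ± 0.46 for vastus lateralis.

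Aplnr had 16.3, 34.9 and 62.9 CPM in soleus, 34.98, 43.1 and 70.2 CPM in vastus intermedius, 21.7, 31.04 and 45.7 CPM in gastrocnemius and 25.2, 32.9 and 48.5 CPM in vastus lateralis at E18.5. Its folds were smaller than those of its ligand, at -0.72 ± 0.30 for soleus, -0.65 ± 0.22 for vastus intermedius, -0.85 ± 0.19 for gastrocnemius and -1.34 ± 0.23 for vastus lateralis, and adult and E18.5 libraries overlapped in all muscles but vastus lateralis. There 33.8% of all genes were lower without overlap. The soleus call was lost without adult collection A, B, D, E or F or E18.5 collection A, B or F, and the vastus intermedius call with the omitted library put back (-0.49, adjusted p = 0.0925). Clec14a, alone among the pan-endothelial members, was lower in adults in all 4 muscles under every scaling. Its adult levels were 18.9, 22.5 and 25.1 CPM in soleus, 14.1, 16.8 and 22.7 CPM in vastus intermedius, 8.72, 12.2 and 14.2 CPM in gastrocnemius and 7.46, 11.4 and 15.4 CPM in vastus lateralis, against 22.6, 31.1 and 38.98 CPM in soleus, 25.7, 33.1 and 46.9 CPM in vastus intermedius, 24.9, 29.2 and 36.7 CPM in gastrocnemius and 24.7, 30.9 and 37.04 CPM in vastus lateralis at E18.5. The folds were -0.50 ± 0.13 for soleus, -0.92 ± 0.17 for vastus intermedius, -1.33 ± 0.13 for gastrocnemius and -1.496 ± 0.18 for vastus lateralis.

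Ptprb was the pan-endothelial member with the largest rise. At E18.5 it had 40.99, 53.5 and 75.4 CPM in soleus, 49.1, 63.9 and 91.9 CPM in vastus intermedius, 46.8, 72.9 and 103 CPM in gastrocnemius and 34.8, 58.9 and 73.1 CPM in vastus lateralis, so that no adult library of a muscle overlapped the E18.5 libraries. Of all genes 27.7% to 31.4% were higher without overlap, depending on the muscle. The folds were 2.38 ± 0.15 for soleus, 2.15 ± 0.18 for vastus intermedius, 1.51 ± 0.18 for gastrocnemius and 1.437 ± 0.19 for vastus lateralis, and all were called with TMM. Under total counts the vastus lateralis fold was 0.41 (adjusted p = 0.0809). Nos3 had 9.01, 10.6 and 15.3 CPM in soleus, 11.01, 12.6 and 15.4 CPM in vastus intermedius, 7.63, 12.96 and 17.4 CPM in gastrocnemius and 8.84, 10.7 and 14.6 CPM in vastus lateralis at E18.5 and rose by 1.52 ± 0.19 for soleus, 1.67 ± 0.16 for vastus intermedius, 0.69 ± 0.17 for gastrocnemius and 0.65 ± 0.23 for vastus lateralis in adults. Mmrn2 rose too, by 1.06 for soleus, 1.23 for vastus intermedius, 0.44 for gastrocnemius and 0.51 for vastus lateralis. The Nos3 call in vastus lateralis was lost without adult collection F. For Nos3 and Mmrn2 the 2 slow-biased muscles kept their call under every scaling, whereas the signs of the fast-biased muscles turned under total counts. That scaling called Mmrn2 lower in both fast-biased muscles and Nos3 lower in gastrocnemius.

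The 2 genes most used to identify endothelium were not called between stages in slow-biased muscle and were lower in adult fast-biased muscle. The Pecam1 folds were 0.19 ± 0.10 for soleus, 0.08 ± 0.15 for vastus intermedius, -0.48 ± 0.12 for gastrocnemius and -0.67 ± 0.13 for vastus lateralis, called in gastrocnemius (adjusted p = 0.00223) and vastus lateralis (adjusted p = 0.000303). In soleus Pecam1 was called higher by DESeq2 (0.22, adjusted p = 0.0428) and without E18.5 collection A (0.27, adjusted p = 0.0169). Cdh5 had 0.08 ± 0.10 for soleus, 0.08 ± 0.10 for vastus intermedius, -0.29 ± 0.11 for gastrocnemius and -0.57 ± 0.12 for vastus lateralis, called in the same muscles, and its gastrocnemius call was lost without E18.5 collection C. Under total counts both genes were lower in adults in all 4 muscles. Icam2 (-0.28 for soleus, -0.19 for vastus intermedius, -0.93 for gastrocnemius and -1.05 for vastus lateralis) was called lower in all but vastus intermedius (in soleus not without E18.5 collection A or B), and Fli1 (0.10 for soleus, -0.09 for vastus intermedius, -0.53 for gastrocnemius and -0.62 for vastus lateralis) in the fast-biased muscles. Under total counts Icam2 was called lower in vastus intermedius too (-0.95), and Fli1 in soleus (-0.60) and vastus intermedius (-0.85).

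Ramp2 had 25.2, 30.1 and 34.5 CPM in soleus, 18.8, 26.9 and 27.96 CPM in vastus intermedius, 18.2, 27.5 and 33.4 CPM in gastrocnemius and 18.9, 24.4 and 30.4 CPM in vastus lateralis at E18.5, and it was called lower in adult gastrocnemius (-0.59 ± 0.14) and vastus lateralis (-0.54 ± 0.16). Sox7 had 19.8, 24.1 and 29.4 CPM in soleus, 25.3, 27.03 and 34.4 CPM in vastus intermedius, 22.3, 28.01 and 31.4 CPM in gastrocnemius and 23.1, 26.1 and 28.2 CPM in vastus lateralis, a narrower range than in adults, and was called lower in adult gastrocnemius (-0.74 ± 0.20) and vastus lateralis (-0.94 ± 0.29). With TMM the slow-biased muscles were not called for these genes, except Sox7 in vastus intermedius without adult collection C (0.65, higher) or D (0.62, higher). Under total counts Ramp2 was called lower in adult soleus (-0.77) and vastus intermedius (-0.51), and Sox7 in soleus (-0.75). Robo4 had 28.7, 36.3 and 46.1 CPM in soleus, 33.3, 37.7 and 41.6 CPM in vastus intermedius, 26.7, 34.97 and 39.7 CPM in gastrocnemius and 26.2, 35.2 and 39.9 CPM in vastus lateralis and was called lower in adults in all muscles but vastus intermedius, with folds of -0.58 for soleus, -0.10 for vastus intermedius, -0.49 for gastrocnemius and -0.63 for vastus lateralis. S1pr1 had 21.8, 23.8 and 28.4 CPM in soleus, 27.4, 30.2 and 37.01 CPM in vastus intermedius, 21.5, 28.1 and 29.99 CPM in gastrocnemius and 23.4, 28.3 and 31.3 CPM in vastus lateralis and was called higher in all but vastus lateralis, with folds of 1.14 for soleus, 0.88 for vastus intermedius, 0.53 for gastrocnemius and 0.29 for vastus lateralis, and there too without adult collection D (0.43, adjusted p = 0.00355). Under total counts S1pr1 was called lower in gastrocnemius (-0.57) and vastus lateralis (-0.74), and its vastus intermedius call was lost (0.13). That scaling called Robo4 lower in vastus intermedius too (-0.86).

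Esam had 27.03, 32.7 and 42.5 CPM in soleus, 32.3, 35.4 and 44.3 CPM in vastus intermedius, 27.9, 34.4 and 42.3 CPM in gastrocnemius and 28.7, 38.5 and 40.5 CPM in vastus lateralis at E18.5. With TMM it was higher in adult soleus (0.36 ± 0.12) and vastus intermedius (0.49 ± 0.10), lower in vastus lateralis (-0.30 ± 0.12) and not called in gastrocnemius, and it turned lower under total counts in the slow-biased muscles. Tal1 had 2.303, 3.16 and 5.98 CPM in soleus, 3.397, 4.01 and 5.55 CPM in vastus intermedius, 2.72, 3.17 and 5.04 CPM in gastrocnemius and 2.74, 3.696 and 4.18 CPM in vastus lateralis, and was called by edgeR in soleus (0.65 ± 0.23, adjusted p = 0.0192). In vastus intermedius Tal1 was called higher by DESeq2 (0.46, adjusted p = 0.0449) and by edgeR without adult collection C (0.59) or E18.5 collection B (0.52) or E (0.54). Tie1, Eng and Egfl7 had folds between 0.38 and 0.84 in soleus and between -0.54 and -0.37 in vastus lateralis. Erg had 0.52 for soleus, 0.38 for vastus intermedius, 0.00 for gastrocnemius and -0.21 for vastus lateralis, called in soleus (in vastus intermedius too without adult collection A), and Sox18 had 0.53 for soleus, 0.67 for vastus intermedius, 0.06 for gastrocnemius and -0.33 for vastus lateralis, called in soleus and vastus intermedius. Under total counts the folds of Tie1, Eng, Erg, Sox18 and Tal1 were negative in all 4 muscles. The Sox18 calls, the Eng call in vastus intermedius and the Esam call in vastus lateralis were also lost when single collections were left out, among them adult A. Upper-quartile scaling lost the soleus calls of Tie1 and Sox18 and the vastus intermedius calls of Eng and Sox18, and called Tie1 and Eng lower in gastrocnemius.

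The capillary members were higher in adults wherever they were called with TMM, 5 of 5 in each slow-biased muscle, 4 in gastrocnemius and 3 in vastus lateralis. Of all genes 36.3%, 36.9%, 38.2% and 36.4% were called higher in soleus, vastus intermedius, gastrocnemius and vastus lateralis. Aqp7 had 1.22, 3.54 and 4.99 CPM in soleus, 2.47, 4.73 and 5.77 CPM in vastus intermedius, 3.37, 4.65 and 5.299 CPM in gastrocnemius and 1.904, 5.39 and 10.6 CPM in vastus lateralis at E18.5 and adult folds of 2.11 ± 0.27 for soleus, 2.36 ± 0.22 for vastus intermedius, 1.41 ± 0.16 for gastrocnemius and 0.92 ± 0.31 for vastus lateralis. Adipoq was at most 0.10 CPM in the E18.5 soleus, vastus intermedius and gastrocnemius libraries, in which Aqp7 still read up to 5.77 CPM, and reached 13.5 CPM in a vastus lateralis library. The part of adipocytes in the Aqp7 rise was not tested. Rgcc had folds of 1.18 ± 0.19 for soleus, 0.80 ± 0.20 for vastus intermedius, 1.61 ± 0.20 for gastrocnemius and 0.77 ± 0.28 for vastus lateralis, and its vastus lateralis call was lost without adult collection B. Under total counts the Rgcc calls in vastus intermedius (0.04) and vastus lateralis (-0.29) were lost. So were those of Aqp7 in gastrocnemius (0.31) and vastus lateralis (-0.10).

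Gpihbp1 had 15.6, 18.46 and 21.2 CPM in soleus, 16.97, 19.2 and 25.5 CPM in vastus intermedius, 12.3, 18.4 and 20.5 CPM in gastrocnemius and 11.9, 21.05 and 22.7 CPM in vastus lateralis at E18.5, and folds of 0.47 ± 0.13 for soleus, 0.76 ± 0.11 for vastus intermedius, 0.51 ± 0.17 for gastrocnemius and 0.07 ± 0.17 for vastus lateralis, the first 3 called. Under total counts it was not higher in any of those 3, with a negative fold in soleus (-0.21) and gastrocnemius (-0.58). That scaling called Gpihbp1 lower in gastrocnemius and vastus lateralis (-0.97). Emcn had 15.3, 16.8 and 23.5 CPM in soleus, 17.3, 18.8 and 23.04 CPM in vastus intermedius, 15.7, 17.8 and 22.7 CPM in gastrocnemius and 14.5, 16.5 and 18.6 CPM in vastus lateralis, and was called higher in adult soleus (0.49 ± 0.12) and vastus intermedius (0.41 ± 0.09). Upper-quartile scaling called Emcn lower in adult gastrocnemius (-0.36) and vastus lateralis (-0.28), and lost the Gpihbp1 call in gastrocnemius (adjusted p = 0.054). Under total counts Emcn was called lower in all muscles but soleus, where its fold was -0.20.

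Plvap moved against its class. With TMM it was called higher in every muscle, where Esm1, Apln and Aplnr were lower, with folds of 1.31 ± 0.17 for soleus, 0.58 ± 0.18 for vastus intermedius, 1.03 ± 0.14 for gastrocnemius and 0.54 ± 0.13 for vastus lateralis. Under total counts Plvap was called higher in soleus only, and lower in vastus lateralis (-0.50). Of the large vessel members, Vwf was higher in adults in all 4 muscles, by 2.86 ± 0.22 for soleus, 2.22 ± 0.26 for vastus intermedius, 0.82 ± 0.26 for gastrocnemius and 1.69 ± 0.26 for vastus lateralis, and no adult library overlapped E18.5 in soleus, vastus intermedius or vastus lateralis. In those muscles 27.7%, 28.8% and 29.2% of all genes were higher without overlap. In gastrocnemius, where 1 E18.5 library reached 80.6 CPM, the fold turned to -0.27 under total counts. Sox17 had 4.91, 7.46 and 10.3 CPM in soleus, 6.38, 9.84 and 10.6 CPM in vastus intermedius, 6.47, 9.23 and 12.6 CPM in gastrocnemius and 7.02, 10.3 and 11.8 CPM in vastus lateralis at E18.5 and was called higher in the slow-biased muscles, at 1.03 ± 0.17 in soleus and 0.90 ± 0.20 in vastus intermedius. In adult vastus lateralis Sox17 was called lower by DESeq2 (-0.43, adjusted p = 0.0493), under upper-quartile scaling (-0.502), and without adult or E18.5 collection F. Under total counts the Sox17 calls in soleus (0.32) and vastus intermedius (0.15) were lost. That scaling called it lower in gastrocnemius (-1.13) and vastus lateralis (-1.42).

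Lyve1 had 15.9, 26.4 and 71.1 CPM in soleus, 28.4, 40.7 and 58.9 CPM in vastus intermedius, 32.5, 33.9 and 41.1 CPM in gastrocnemius and 23.02, 30.03 and 62.3 CPM in vastus lateralis at E18.5. It fell in adult vastus intermedius, gastrocnemius and vastus lateralis, and was not called in soleus, with folds of -0.35 ± 0.31 for soleus, -1.398 ± 0.20 for vastus intermedius, -2.06 ± 0.21 for gastrocnemius and -2.74 ± 0.34 for vastus lateralis. Under total counts Lyve1 was called lower in soleus too (-1.07). Of the 5 lymphatic list genes, 0 were called higher and 5 lower in gastrocnemius and 0 and 4 in vastus lateralis, against 1 and 1 in soleus and 1 and 2 in vastus intermedius. Of all genes 44.0%, 42.6%, 39.7% and 39.2% were called lower in those muscles.

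**Figure D3:**
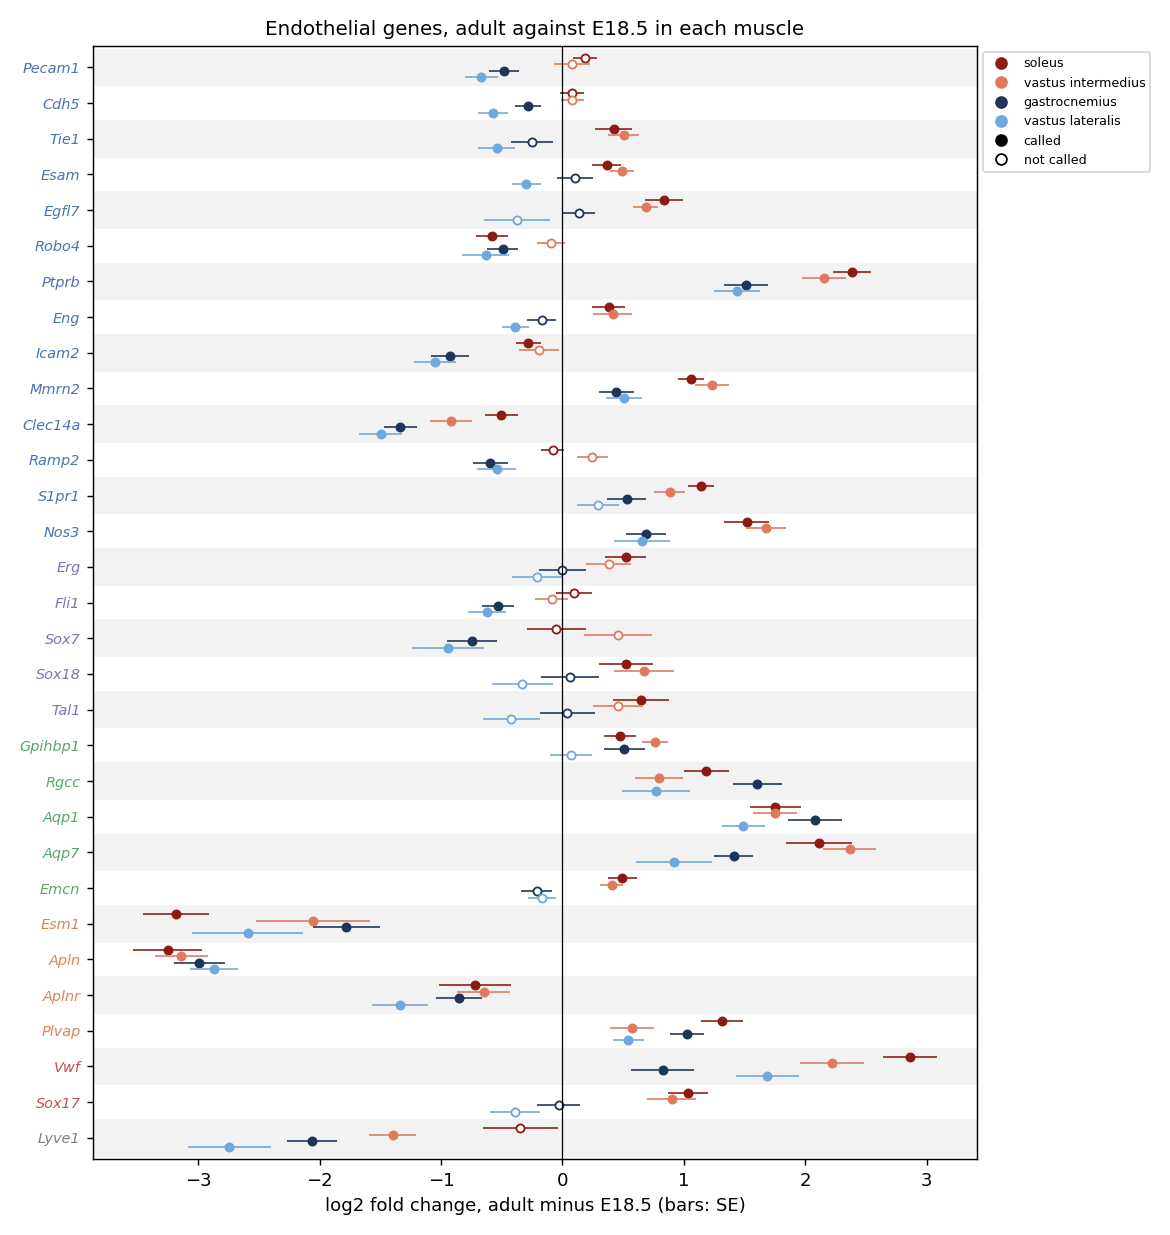
Log2 fold of adult minus E18.5 (horizontal axis, bars SE, TMM scaling) for the 31 tested members in each muscle, filled where called, with gene names coloured by class. Ptprb, Aqp1, Aqp7 and Vwf lie right of 0 in every muscle, Clec14a, Esm1, Apln and Aplnr lie left of it, and for most pan-endothelial genes the slow-biased muscles lie right of the fast-biased muscles.

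To see whether the kinds of vessel marker moved apart from endothelium as such, the 12 non-pan members were tested per unit of pan-endothelial counts, with each library sized by its summed count of the 20 pan-endothelial genes. That sum moves with Ptprb, and another sizing used Cdh5 and Pecam1 only. Between adult slow-biased and fast-biased muscle 1 of the 12 was called higher and 4 lower, where 71.9% of all genes were called, 8.82% higher and 63.1% lower, and the median of all genes was -0.63. Lyve1 was higher (0.81 ± 0.23, adjusted p = 0.00244). Aqp1 (-0.67 ± 0.11, adjusted p = 4.05e-06), Rgcc (-0.78 ± 0.22, adjusted p = 0.00206), Apln (-0.87 ± 0.24, adjusted p = 0.00198) and Gpihbp1 (-0.26 ± 0.11, adjusted p = 0.0413) were lower.

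Relative to endothelium at large, therefore, Aqp1 and Rgcc were about as much lower in slow-biased muscle as the median gene, while Emcn (0.05 ± 0.11), Aqp7 (-0.02 ± 0.13), Aplnr (0.00 ± 0.15), Plvap (-0.10 ± 0.11) and Vwf (-0.09 ± 0.12) lay near 0. As a share of the pan-endothelial sum, Aqp1 had medians of 24.99% for soleus, 27.5% for vastus intermedius, 43.3% for gastrocnemius and 42.1% for vastus lateralis of adults. With the Cdh5 and Pecam1 sizing the Gpihbp1 call was lost (-0.21, adjusted p = 0.0804) and Sox17 was called higher (0.34, adjusted p = 0.0243). The Apln call was lost with the omitted library put back (-0.08, adjusted p = 0.873).

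Between stages, the relative fit called 6 of the 12 higher and 4 lower in adult soleus, 3 and 4 in vastus intermedius, 6 and 4 in gastrocnemius, and 5 and 4 in vastus lateralis. Of all genes, 76.9% were called in soleus (19% higher, 57.9% lower), 72.5% in vastus intermedius (18.9% and 53.5%), 75.6% in gastrocnemius (34% and 41.6%) and 72.3% in vastus lateralis (38.4% and 33.9%). Aqp1 (1.13 for soleus, 1.22 for vastus intermedius, 2.08 for gastrocnemius and 1.75 for vastus lateralis), Aqp7 (1.49 for soleus, 1.797 for vastus intermedius, 1.39 for gastrocnemius and 1.17 for vastus lateralis) and Vwf (2.28 for soleus, 1.69 for vastus intermedius, 0.86 for gastrocnemius and 1.96 for vastus lateralis) were called higher in every muscle. Esm1 (-3.77 for soleus, -2.72 for vastus intermedius, -1.84 for gastrocnemius and -2.44 for vastus lateralis), Apln (-3.87 for soleus, -3.76 for vastus intermedius, -3.001 for gastrocnemius and -2.71 for vastus lateralis), Aplnr (-1.25 for soleus, -1.21 for vastus intermedius, -0.85 for gastrocnemius and -1.17 for vastus lateralis) and Lyve1 (-0.86 for soleus, -1.99963 for vastus intermedius, -2.03 for gastrocnemius and -2.54 for vastus lateralis) were called lower in every muscle. These folds do not depend on the choice between TMM and total counts.

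Aqp1 medians rose to 24.99%, 27.5%, 43.3% and 42.1% of the pan-endothelial sum in adult soleus, vastus intermedius, gastrocnemius and vastus lateralis, against 11.01%, 12.7%, 10.7% and 12.7% at E18.5. Apln made up 0.306%, 0.312%, 0.4998% and 0.569% in the adult muscles, against 4.99%, 3.92%, 4.66% and 3.84% at E18.5. Rgcc was called higher in all but vastus intermedius (0.56 for soleus, 0.25 for vastus intermedius, 1.56 for gastrocnemius and 1.07 for vastus lateralis), and so was Plvap (0.74 for soleus, -0.02 for vastus intermedius, 1.008 for gastrocnemius and 0.78 for vastus lateralis). Emcn was called in none (-0.10 for soleus, -0.16 for vastus intermedius, -0.24 for gastrocnemius and 0.06 for vastus lateralis). Gpihbp1 was called in gastrocnemius only (0.46 ± 0.15) and Sox17 in soleus only (0.46 ± 0.16). With the Cdh5 and Pecam1 sizing, Gpihbp1 was also called higher in vastus intermedius (0.70) and vastus lateralis (0.70) and Emcn in soleus (0.37) and vastus lateralis (0.46), Rgcc (0.72), Plvap (0.47) and Sox17 (0.80) were called higher in vastus intermedius, and the Lyve1 call in soleus was lost (-0.38, adjusted p = 0.217).

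**Figure D4:**
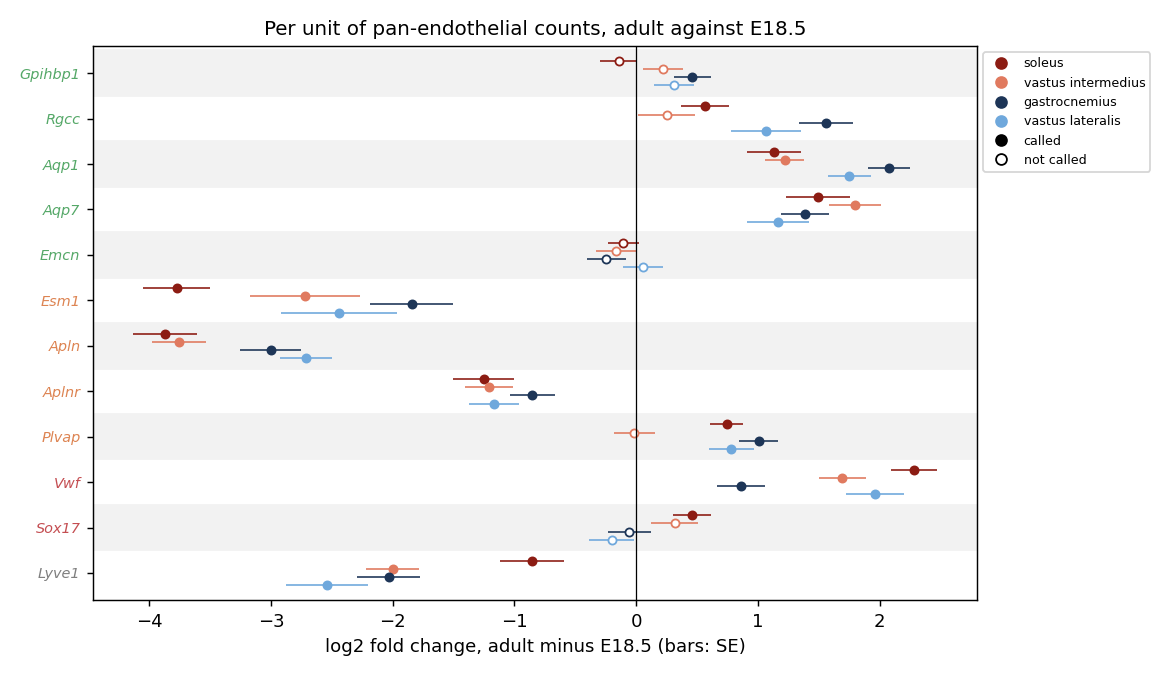
Log2 fold of adult minus E18.5 per unit of pan-endothelial counts (horizontal axis, bars SE) for the 12 capillary, growing vessel, large vessel and lymphatic members in each muscle, filled where called. Aqp1, Aqp7 and Vwf lie right of 0 in all 4 muscles, Esm1, Apln, Aplnr and Lyve1 left of 0, and Emcn lies within 0.24 of 0.

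Vessel genes outside the set were counted on lists of their own. In the adult slow-to-fast comparison 35.9% of all genes were called higher and 30.1% lower. Of 9 other pan-endothelial genes tested, 9 were higher in adult slow-biased muscle (median 0.81), and of 6 other capillary genes 5 (median 0.78), Kdr (1.007 ± 0.09), the VEGF receptor, and Car4 (1.04 ± 0.21), a carbonic anhydrase of capillary walls, among them. Of 8 arterial genes 6 were higher (median 0.64), with Gja5, a connexin of arteries, at 1.003 ± 0.20, and of 6 venous genes 4 were higher and 1 lower (median 0.54). Between stages the arterial list was mostly lower in adults, 5 of 8 in soleus and vastus intermedius and 6 of 8 in gastrocnemius and vastus lateralis, with Gja5 at -1.88 ± 0.25 in soleus. Of all genes 39.7%, 39.2%, 44.0% and 42.6% were called lower in soleus, vastus intermedius, gastrocnemius and vastus lateralis. Of the 6 other capillary genes, 5 were called higher in adult soleus, 6 in vastus intermedius and 5 in gastrocnemius, with 1 lower there. In those muscles 36.3%, 36.9% and 38.2% of all genes were called higher. In vastus lateralis 2 were called higher and 1 lower, where 36.4% of all genes were called higher.

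Other cells of the muscle differed along the same adult contrast, in which 35.9% of all genes were called higher and 30.1% lower. Of 10 pericyte and smooth muscle genes 8 were higher and 1 lower in slow-biased muscle (median 0.91), of 8 leukocyte genes 8 were higher (median 0.82), of 2 erythroid genes 2 (median 1.31), and of 5 fibroblast genes 3 (median 0.44). The summed erythroid list ran at 77.2, 84.3 and 185 CPM in soleus, 76.7, 101 and 184 CPM in vastus intermedius, 27.3, 53.4 and 64.9 CPM in gastrocnemius and 15.3, 32.4 and 69.995 CPM in vastus lateralis. Of 7 muscle fibre genes 3 were higher and 4 lower, and their sum, given by group with the stage results, was lower in slow-biased muscle. Their part in the endothelial result was not tested.

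Within groups the pan-endothelial genes varied together. The deviation of a gene from its group mean was correlated with the mean deviation of the other pan-endothelial genes. This was done over 23 adult and over 24 E18.5 libraries, which share depth and scaling and come from 6 animals per stage. The same r was not computed for all genes or for genes of other cells, so it has no baseline. The median r of the 19 pan-endothelial genes was 0.72 in adults and 0.83 at E18.5. It was 0.52 and 0.59 for the capillary members, and 0.32 and 0.46 for the growing vessel members. Clec14a had r = 0.08 in adults and 0.85 at E18.5, Rgcc had -0.16 in adults, and Lyve1 had -0.15 in adults and 0.34 at E18.5.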

How the data were processed

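The authors deposited raw read counts per gene for 48 libraries in 1 table, not normalized. The submitters' processing notes name STAR 2.7.11, Subread 2.0.6 (featureCounts), DESeq2 1.44.0, Trimmomatic 0.39.0 and FastQC 0.11.5, and build mm10. Annotation and strand setting were not given in the sources used here. There are 10 of the 32 members that overlap another annotated gene (Cdh5, Egfl7, Emcn, Eng, Esm1, Fli1, Nos3, Plvap, Ptprb and Tal1), whose reads could not be told apart. The authors' deposited comparison tables, which hold log2 fold changes, p-values and base mean scores, were used for gene symbols only (18780 of 27179 genes), with 6501 more from the RefSeq table of GRCm38.p6 and 1898 left without one.

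Counts were tested with edgeR 4.0.16 in R 4.3.3 (quasi-likelihood F test, TMM, filterByExpr, Benjamini-Hochberg adjustment over all genes tested, threshold 0.05). Muscles were compared in 1 fit per stage, stages in 1 fit per muscle, and the change of the slow-to-fast difference between stages in 1 fit of all 8 groups. A standard error is the absolute fold over the root of the F statistic. The relative fits used the summed counts of the 20 pan-endothelial genes as library size and no TMM. DESeq2 1.42.0, upper-quartile scaling, total counts without TMM (chosen after seeing the data), no filter, the omitted library put back, each collection left out and the animal as a block were tried. The block was used only for muscle comparisons within a stage. Collections were not left out in the fit of all 8 groups. For the relative fits only the Cdh5 and Pecam1 sizing and the omitted library put back were tried. The tests were checked on simulated counts.

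Table columns name stage, muscle and a date tag, not the animal. The 6 tags of each stage, over 4 dates at E18.5 and 5 in adults, were lettered A to F as collections. The labels say that the 4 muscles came from the same mice, so a collection was taken as 1 animal. Deviations from group means correlated by 0.12 on average between libraries of 1 collection in adults and 0.21 at E18.5, against -0.02 and -0.04 between collections. No library pair of a group agreed within sampling noise (lowest chi-square per degree of freedom 10.23). Floors cover counting error only, while standard errors include the spread between animals.

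Levels are given in every group for 10 pan-endothelial members (Pecam1, Cdh5, Esam, Robo4, Ptprb, Ramp2, S1pr1, Nos3, Sox7 and Tal1) and all 12 others, and for the rest where a call went against most of the class. At most 2 genes of each other list are named, beside the markers that touch a member. The members and lists were chosen with earlier results of these data known.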

Additional observations from a re-analysis of the deposited data

Results flagged for a closer look

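In 10 of 184 groups of libraries tested, 1 library lay far from the others, where chance gives about 1 in 20 groups. In soleus, collection A was the highest library for Ptprb in adults (356 CPM, next 290.1 CPM), for Nos3 in adults (50.5 CPM, next 32.4 CPM), and at E18.5, where A is another animal, for Nos3 (15.3 CPM, next 11.01 CPM), Vwf (29.6 CPM, next 16.6 CPM) and Lyve1 (71.1 CPM, next 35.6 CPM). In E18.5 gastrocnemius the highest library was collection E for Apln (40.6 CPM, next 36.5 CPM) and collection C for Lyve1 (41.1 CPM, next 34.5 CPM). In vastus intermedius it was E18.5 collection E for Plvap (36.6 CPM, next 27.8 CPM). In vastus lateralis Vwf was highest in adult collection F (91.9 CPM, next 64.5 CPM) and in E18.5 collection D (40.1 CPM, next 20.9 CPM).

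For 23 members the slow-to-fast difference itself differed between stages (edgeR quasi-likelihood test of the contrast), and in all 23 the adult difference was the higher. Of all genes 50.8% were called in this contrast, 26.6% higher and 24.2% lower. The log2 contrasts of surface and junction genes were 0.67 for Pecam1, 0.48 for Cdh5, 0.83 for Tie1, 0.49 for Esam, 0.85 for Egfl7, 0.76 for Ptprb, 0.65 for Eng, 0.72 for Icam2, 0.64 for Mmrn2, 0.67 for Clec14a, 0.62 for Ramp2, 0.57 for S1pr1 and 0.90 for Nos3. Those of transcription factors were 0.52 for Erg, 0.55 for Fli1, 1.02 for Sox7, 0.70 for Sox18 and 0.71 for Tal1. Aqp7 had 1.04 and Emcn 0.61, and the vessel markers Vwf had 1.25, Sox17 1.15 and Lyve1 1.495.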

How the results depend on the processing

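The count of members called between adult slow-biased and fast-biased muscle was 26 to 28 under every alternative, collections left out included. Counts that moved by over 1.5 times were the adult thigh against shank count (1 member, 3 under total counts without TMM, 0 with the omitted library put back), the E18.5 slow against fast count (0, but 1 with DESeq2), the E18.5 thigh against shank count (4, but 7 with the replicate block) and the relative stage count of vastus intermedius (7, but 11 when scaled to Cdh5 and Pecam1). With single collections left out, counts ranged from 26 to 27 for adult slow against fast, 14 to 19 for soleus against gastrocnemius, 25 to 28 for vastus intermedius against vastus lateralis, 0 to 1 for adult thigh against shank, 1 to 4 for E18.5 thigh against shank, and 0 throughout for E18.5 slow against fast, and from 22 to 25, 20 to 24, 21 to 23 and 21 to 24 for stage in soleus, vastus intermedius, gastrocnemius and vastus lateralis. In the muscle comparisons within a stage, the animal as a block changed 6 single calls, all given in the report, and no other. The block and the leaving out of collections were not tried for the contrast between stages of the slow-to-fast difference. They were not tried for the relative fits either.

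Signs turned under total counts alone, in 26 called stage folds, and the cause was not tested beyond the shift of all genes. In soleus they were Tie1 -0.28, Esam -0.33, Eng -0.31, Erg -0.16, Sox18 -0.18, Tal1 -0.057, Gpihbp1 -0.21 and Emcn -0.20. In vastus intermedius they were Tie1 -0.25, Esam -0.27, Egfl7 -0.071, Eng -0.34, Sox18 -0.087, Emcn -0.35 and Plvap -0.17. In gastrocnemius they were Mmrn2 -0.65, S1pr1 -0.57, Nos3 -0.41, Gpihbp1 -0.58, Plvap -0.069 and Vwf -0.27, and in vastus lateralis Mmrn2 -0.52, Nos3 -0.37, Rgcc -0.29, Aqp7 -0.10 and Plvap -0.50. Those called lower under total counts included Esam in soleus and vastus intermedius and Emcn in vastus intermedius. Mmrn2, S1pr1, Nos3 and Gpihbp1 in gastrocnemius and Mmrn2 and Plvap in vastus lateralis were called lower too, and the rest were not called. Of the members' folds over all alternatives, 4177 kept their call and its direction or stayed without a call, 26 reversed, 82 gained and 108 lost a call. Direction was not compared for folds without a call. The depth limits Esm1 in single adult libraries that lay under 3 counts.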

Other observations

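The vessel gene levels of the adult vastus intermedius library left out of the groups are part of the embryonic profile for which it was omitted. It had 39.9 CPM of Apln, 2.28 CPM of Esm1, 83.9 CPM of Ptprb, 24.7 CPM of Vwf, 38.6 CPM of Clec14a and 42.4 CPM of Lyve1. Each of these values lay inside the E18.5 range of at least 1 muscle and outside that of the adult vastus intermedius libraries used.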
